A study of Mus musculus with 6 samples.

Results

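The genes described here encode the IκB proteins and the A20 group of feedback inhibitors of NF-κB signalling. The gene names taken were *Nfkbia*, *Nfkbib*, *Nfkbie*, *Nfkbiz*, *Nfkbid*, *Bcl3*, *Tnfaip3*, *Tnip1*, *Irak3* and *Cyld*, and every non-control array spot annotated with one of these names was used. All 10 genes were found, by 14 probes, among 34787 gene names measured, of which 22220 matched a RefSeq gene. The samples were bone marrow–derived macrophages (BMDMs) of wild-type female C57/B6 mice, differentiated for 7 days in L929 cell conditioned medium. The mice were 6 to 8 weeks old per the labels. The published methods give a different age range. There were 3 groups of 2 arrays each, from independent experiments: untreated cells, cells given lipopolysaccharide (LPS) for 4 h, and cells given the USP7 inhibitor HBX41,108 at 10 μM for 30 min before the same LPS stimulation (LPS+USP7i). The series description gives LPS at 100 ng/ml and the treatment protocol gives 100 ng/μl. Whether the LPS group was given solvent without inhibitor is not given in the sources used here, and a solvent effect cannot be told apart from that of the inhibitor.

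Macrophages that sense LPS through the receptor TLR4 switch on inflammatory genes together with genes that restrain the response, and many of the latter act on the transcription factor NF-κB or on the steps before it. The classical IκB proteins bind NF-κB dimers and mask their nuclear localization signals until they are phosphorylated by the IKK kinases. The ubiquitin-editing enzyme A20 and its partners act earlier, on the ubiquitin chains that carry the signal from the receptor to IKK. A second group of IκB proteins, IκBζ, IκBNS and Bcl-3, resides in the nucleus and adjusts which NF-κB target genes are transcribed. USP7 is a deubiquitinase that acts on the p65 subunit of NF-κB, and the study asked how its inhibition changes transcription induced through TLR4.

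Each array was a 1-color Agilent array with 59305 non-control spots, and the signal is given below as log2 of the background-corrected intensity after quantile normalization. Between 25002 and 27467 spots per array were well above background, and 0 spots were saturated. All 14 probes of the IκB and A20 feedback genes were well above background on all 6 arrays. All 7 macrophage markers examined, from *Adgre1* to *Fcgr1*, were also well above background on every array, with *Csf1r* the brightest at a mean log2 signal of 17.67. Their summed raw signals were 627669 and 771290 without treatment, 535049 and 642941 after LPS, and 455111 and 519121 after LPS+USP7i. Such sums are not normalized, and the arrays as a whole dimmed in the same order. The 75th percentile of the raw signal over all non-control spots was 324.5 and 458.1, 241.1 and 288.4, and 233.1 and 268.2. Of the macrophage markers, after normalization *Itgam* was lower with LPS than untreated (−0.66, adjusted p = 0.0233) and *Fcgr1* was lower with LPS+USP7i than with LPS (−1.60, adjusted p = 0.0317). Of 7 neutrophil and granulocyte precursor markers, 6 were well above background on all arrays, led by *Elane* at a mean log2 signal of 11.57. The summed raw signals of these markers were 5454 and 10021 without treatment, 4927 and 12508 after LPS, and 4749 and 9177 after LPS+USP7i, higher in replicate 2 of each group. The markers did not move together. After normalization *S100a8*, *S100a9*, *Camp* and *Ngp* were higher in replicate 2 of each group, while *Mpo* and *Ly6g* were higher in replicate 1. Of 4 B cell markers, *Cd79a* and *Cd79b* were well above background on all arrays. The summed raw signals of the 4 were 1140 and 993 without treatment, 935 and 509 after LPS, and 559 and 258 after LPS+USP7i, in each replicate lower after LPS and lower again after LPS+USP7i. *Cd79b*, the brightest, differed by −0.48 between LPS and untreated cells (adjusted p = 0.559) and by −0.85 between LPS+USP7i and LPS (adjusted p = 0.36). Of 3 T cell markers found, *Cd3e* was well above background on all arrays and *Cd3g* on none, and the sums were 723 and 882, 552 and 587, and 599 and 634 in the same order. Of the dendritic cell markers, *Flt3*, *Cd209a* and *Xcr1* were not well above background on any array, while *Zbtb46* was so on the 4 treated arrays and on neither untreated one. Against its untreated mean log2 signal of 3.94, it was 5.65-fold higher with LPS (adjusted p = 0.00435) and 4.41-fold higher with LPS+USP7i (adjusted p = 0.00806) on this scale. That mean lay near the lowest signal well above background. The dendritic cell sums were 32 and 54, 95 and 122, and 72 and 85. Fibroblast markers *Col1a1*, *Col3a1* and *Pdgfra* were not well above background on any array, and *Col1a2* was on 1. The part of other cell types in the results was not tested. In RNA from a whole culture, fewer cells of a type and less RNA per cell cannot be told apart.

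LPS raised 9 of the 10 genes and lowered *Cyld* (limma, adjusted p under 0.05). Fewer of the 9 passed with any 1 untreated or LPS array left out. The *Cyld* call is that of its brighter probe. Its other probe differed by 0.54 (adjusted p = 0.193) and the mean of both by −0.23 (adjusted p = 0.145). Over all gene names, 7.98% were higher and 12.8% were lower with LPS. These shares depend on the scaling, as 2775 gene names were higher and 4443 lower here, against 12150 and 4048 with 75th percentile scaling, where 9 of the 10 genes were likewise higher. The 9 genes were also higher on both LPS arrays than on either untreated array, as were 31.0% of all gene names. The rise was largest for *Nfkbiz*, at 46.2-fold, and smallest for *Nfkbid*, at 1.70-fold. The median difference of the 10 genes was 2.44 on the log2 scale. Quantile normalization holds the median of all gene names near 0, and with 75th percentile scaling that median was 0.40. With the inhibitor present, 3 of the 10 genes fell below their level with LPS alone, namely *Irak3*, *Bcl3* and *Tnip1*, while 4.27% of all gene names were lower. With the replicate number as a block, only *Tnip1* passed. No member was called higher (0 of 10 by limma, also 0 at an unadjusted p under 0.05), against 5.52% of gene names. On both LPS+USP7i arrays, 9 of the 10 genes lay below both LPS arrays, as did 25.3% of all gene names. The median difference of all 10 was −0.68, and it was −0.82 with 75th percentile scaling, where that of all gene names was 0.

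**Figure D1:**
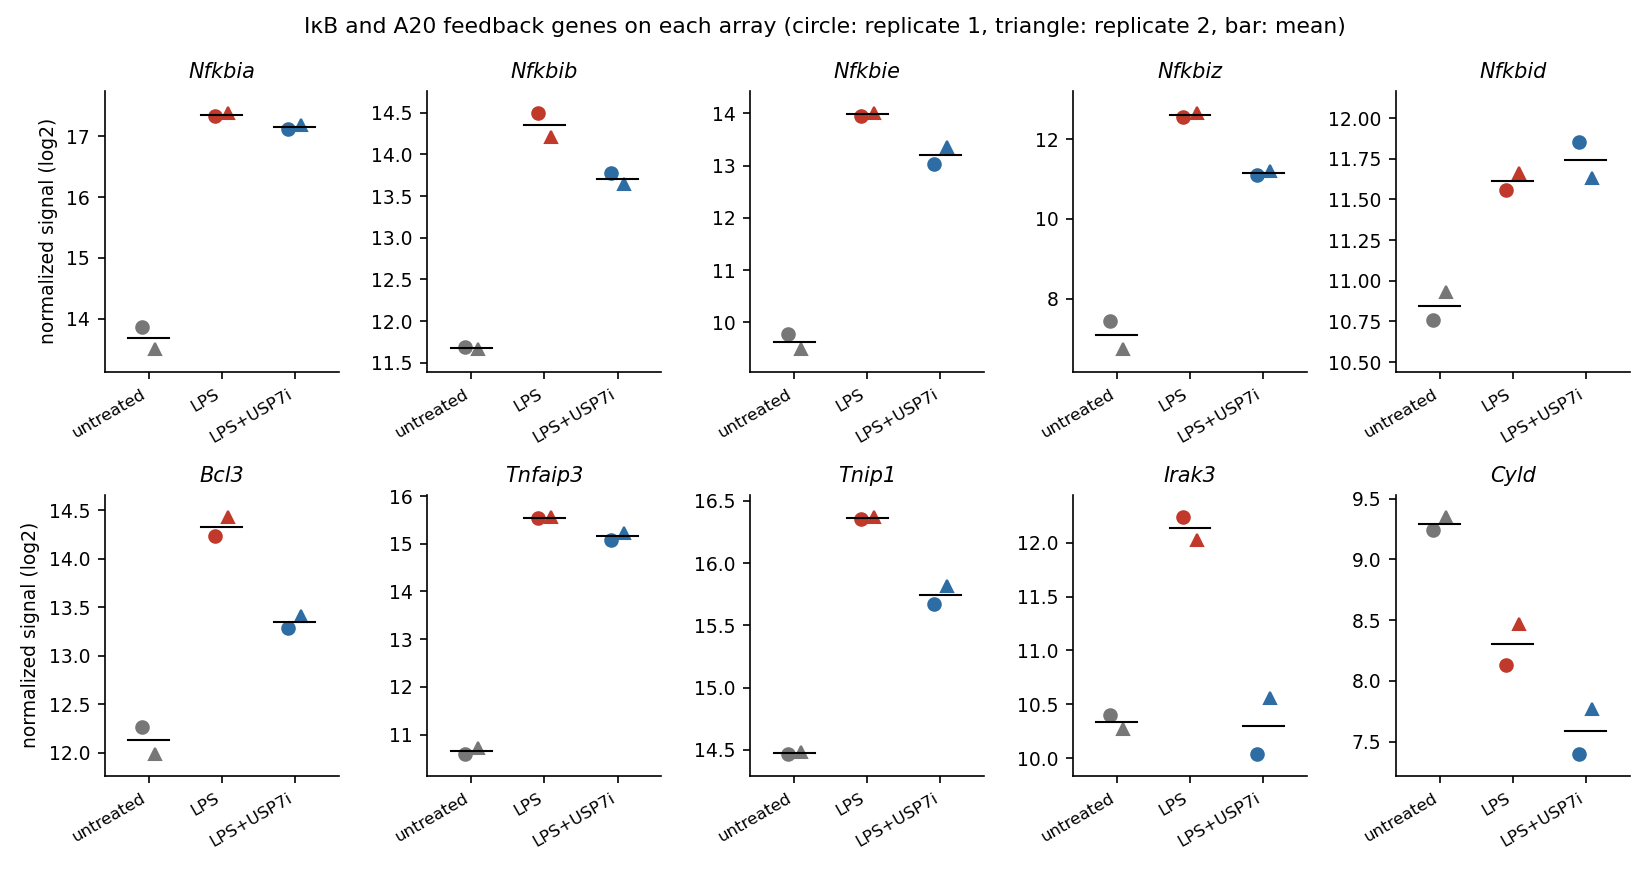
Normalized log2 signal of each gene on each of the 6 arrays, with 1 panel per gene; circles are replicate 1, triangles are replicate 2, and bars are group means. In 8 of the panels the LPS+USP7i arrays stay above the untreated arrays, while for *Irak3* they lie on either side of them and for *Cyld* below them.

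*Nfkbia* encodes IκBα, the main cytoplasmic inhibitor, which is degraded and resynthesized after TLR4 stimulation. Its promoter is shown because it is the best known target of this feedback loop; the 250 bases before its start in RefSeq (GRCm38.p6, chr12:55492648-55492897, minus strand) read as follows, with matches to GGGNNNNNCC on either strand in capitals.
Nfkbia: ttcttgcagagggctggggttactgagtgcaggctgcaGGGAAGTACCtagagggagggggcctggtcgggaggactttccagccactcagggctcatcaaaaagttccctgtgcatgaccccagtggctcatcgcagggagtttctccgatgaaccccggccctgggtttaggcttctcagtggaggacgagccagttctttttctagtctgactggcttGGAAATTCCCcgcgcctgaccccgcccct
The match nearest the start, GGAAATTCCC at 29 to 20 bases before it, also matches the stricter κB consensus. The probe for *Nfkbia* lay at chr12:56590945-56591440 (mm9). Its log2 signal was 13.86 and 13.49 on the untreated arrays, 17.33 and 17.39 after LPS, and 17.13 and 17.18 after LPS+USP7i. The untreated arrays were far below the other 4, and the LPS+USP7i arrays were just below the LPS arrays without overlap. LPS raised *Nfkbia* by 3.68 (standard error 0.14, adjusted p = 0.00281), a 12.9-fold increase. LPS+USP7i differed from LPS by −0.21 (95% interval −0.60 to 0.19, adjusted p = 0.548), an interval that includes 0. The raw signal showed the same order of groups, with 13380 and 15003 without treatment, 159459 and 196658 after LPS, and 113526 and 156291 after LPS+USP7i.

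*Nfkbib* and *Nfkbie* encode IκBβ and IκBε, the other classical cytoplasmic inhibitors. The brightest *Nfkbib* probe (chr7:29544160-29544219, mm9) gave 11.69 and 11.66 without treatment, 14.50 and 14.21 after LPS, and 13.78 and 13.64 after LPS+USP7i. LPS raised it 6.40-fold (adjusted p = 0.00319), and LPS+USP7i differed from LPS by −0.64 (95% interval −0.99 to −0.30, adjusted p = 0.0633). The groups did not overlap, with LPS+USP7i between the other groups. *Nfkbie* (chr17:45700000-45700059, mm9) had log2 signals of 9.78 and 9.48 without treatment, 13.95 and 14.01 after LPS, and 13.03 and 13.36 after LPS+USP7i. It was 20.4-fold higher with LPS (adjusted p = 0.00281) and differed by −0.79 between LPS+USP7i and LPS (95% interval −1.25 to −0.32, adjusted p = 0.0759). For both genes the inhibitor arrays were lower in each replicate, but neither difference passed the threshold. Against untreated cells, LPS+USP7i cells still had 4.10-fold more *Nfkbib* (adjusted p = 0.00644) and 11.8-fold more *Nfkbie* (adjusted p = 0.00536).

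The nuclear IκB proteins are encoded by *Nfkbiz*, *Bcl3* and *Nfkbid*. *Nfkbiz* encodes IκBζ, which is required for the expression of a set of secondary response genes such as *Il6*. Its signal (chr16:55817859-55817918, mm9) was 7.44 and 6.72 without treatment, 12.56 and 12.67 after LPS, and 11.10 and 11.20 after LPS+USP7i. The 3 groups were clearly separated, and the untreated arrays were the furthest apart of any pair for this gene. LPS raised it by 5.53 (standard error 0.26, adjusted p = 0.00324), or by 4.91 with normexp background correction. The difference between LPS+USP7i and LPS was −1.47 (95% interval −2.19 to −0.74, adjusted p = 0.0545), a 2.76-fold lower signal that did not pass the threshold over all probes. This difference passed in 6 of 15 alternatives, such as the deposited values (adjusted p = 0.0296), but not with the replicate block (adjusted p = 0.0869). With 2 arrays per group, the smallest two-sided p of an exact permutation test is 0.333 for any gene, so no call rests on that test.

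*Bcl3* encodes an IκB protein that binds the p50 and p52 homodimers of NF-κB. The *Bcl3* probe (chr7:20393826-20393885, mm9) gave 12.27 and 11.99 without treatment, 14.23 and 14.43 after LPS, and 13.29 and 13.41 after LPS+USP7i. The inhibitor arrays lay about midway between the other groups, with no overlap. LPS raised *Bcl3* 4.58-fold (adjusted p = 0.00438), and with the inhibitor it fell by 0.98 on the log2 scale (95% interval −1.36 to −0.59, adjusted p = 0.0353), a 1.97-fold decrease. With the replicate block this call was lost (adjusted p = 0.0707, with a range of 0.00421 to 0.126 over all alternatives). *Nfkbid* is the gene for IκBNS. Its signal (chr7:31213705-31213764, mm9) was 10.76 and 10.93 without treatment, 11.56 and 11.66 after LPS, and 11.85 and 11.63 after LPS+USP7i. The LPS and LPS+USP7i arrays overlapped, and their difference was 0.13 (95% interval −0.19 to 0.46, adjusted p = 0.619). LPS raised *Nfkbid* by 0.77 (adjusted p = 0.0233), but with either untreated or either LPS array left out the adjusted p was 0.101, 0.0748, 0.0847 and 0.0953, so this call was lost without any 1 of them. With the replicate block the rise of *Nfkbid* was also lost (adjusted p = 0.051). Whether *Bcl3* and *Nfkbid* differ in their response to the inhibitor was not tested.

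*Tnfaip3* encodes A20, which edits ubiquitin chains on RIPK1 and TRAF6 and restrains IKK activation. Its promoter (RefSeq, GRCm38.p6, chr10:19015411-19015660, minus strand, for the start listed farther upstream) is shown for comparison with that of *Nfkbia*, with the same matches in capitals.
Tnfaip3: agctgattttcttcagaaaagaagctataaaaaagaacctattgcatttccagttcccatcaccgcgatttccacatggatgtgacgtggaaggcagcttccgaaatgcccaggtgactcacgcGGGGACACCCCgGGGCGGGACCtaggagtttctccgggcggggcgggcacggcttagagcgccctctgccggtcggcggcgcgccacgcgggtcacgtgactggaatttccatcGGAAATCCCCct
The consensus was met by GGGACACCCC at 125 to 116 bases and by GGAAATCCCC at 12 to 3 bases before the start. The *Tnfaip3* probe (chr10:18720776-18720835, mm9) gave 10.60 and 10.71 without treatment, 15.53 and 15.56 after LPS, and 15.08 and 15.23 after LPS+USP7i. Replicates of this gene were close in every group, and the stimulated groups were both far above the untreated arrays. LPS raised *Tnfaip3* by 4.89 (standard error 0.08, adjusted p = 0.00155), a 29.7-fold increase. LPS+USP7i was lower than LPS on both arrays by a small amount, −0.39 (95% interval −0.62 to −0.16, adjusted p = 0.0772), and remained 22.6-fold above untreated cells (adjusted p = 0.00384).

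*Tnip1* encodes ABIN-1, a ubiquitin-binding partner of A20. Its promoter (RefSeq, GRCm38.p6, chr11:54962941-54963190, minus strand) is shown because its matches form 1 palindromic block, in capitals.
Tnip1: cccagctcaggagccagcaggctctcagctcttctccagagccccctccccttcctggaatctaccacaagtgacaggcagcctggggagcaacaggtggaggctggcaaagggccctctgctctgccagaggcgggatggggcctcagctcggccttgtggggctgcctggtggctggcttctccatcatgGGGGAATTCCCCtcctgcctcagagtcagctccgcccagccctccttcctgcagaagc
The 3 overlapping consensus matches in this block started 58, 57 and 56 bases before the start. The brighter *Tnip1* probe (chr11:54724291-54724350, mm9) gave 14.47 and 14.48 without treatment, 16.35 and 16.37 after LPS, and 15.67 and 15.82 after LPS+USP7i. The 3 groups were separated by much more than the replicates. LPS raised *Tnip1* 3.70-fold (adjusted p = 0.00289), and with the inhibitor it fell by 0.62 (95% interval −0.82 to −0.41, adjusted p = 0.0267), a 1.53-fold decrease. This call was kept with the replicate block, but it was lost with the deposited values (adjusted p = 0.0709) and with the mean of both probes (adjusted p = 0.0541). Over all alternatives the adjusted p ranged from 0.00481 to 0.094, and 7 of 15 passed. The adjacent probe (chr11:54724351-54724410, mm9) gave the same order of groups, with 15.59 and 15.96 on the LPS+USP7i arrays against 16.29 and 16.38 with LPS, but its difference of −0.56 had an adjusted p of 0.142.

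*Irak3* encodes IRAK-M, an IRAK family member that dampens signalling downstream of TLRs. The *Irak3* probe (chr10:119578999-119579058, mm9) gave 10.40 and 10.27 without treatment, 12.24 and 12.03 after LPS, and 10.04 and 10.56 after LPS+USP7i. The inhibitor arrays were the furthest apart of the 3 pairs, and 1 lay below and 1 above both untreated arrays. *Irak3* rose 3.49-fold with LPS (adjusted p = 0.0126) and fell by 1.83 with the inhibitor (95% interval −2.42 to −1.25, adjusted p = 0.0249), a 3.57-fold decrease. With the replicate block the fall missed the threshold (adjusted p = 0.0549, with a range of 0.0015 to 0.101 over all alternatives). With either untreated or either LPS array left out, the adjusted p of the rise was 0.0652, 0.0771, 0.0681 and 0.0524, so this call too was lost without any 1 of them. Between LPS+USP7i and untreated cells it differed by −0.03 (95% interval −0.62 to 0.55, adjusted p = 0.994). With all arrays, *Irak3* was the only one of the 9 genes raised by LPS that was not called against untreated cells in the presence of the inhibitor.

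*Cyld* encodes a deubiquitinase that removes K63-linked and linear ubiquitin chains and restrains NF-κB activation. The brighter *Cyld* probe (chr8:91275781-91275840, mm9) gave 9.24 and 9.35 without treatment, 8.13 and 8.47 after LPS, and 7.40 and 7.77 after LPS+USP7i. The groups did not overlap, with untreated cells the highest and LPS+USP7i cells the lowest. With LPS it was 1.99-fold lower (adjusted p = 0.0371), and LPS+USP7i differed from LPS by −0.72 (95% interval −1.23 to −0.20, adjusted p = 0.113). The other probe (chr8:91229427-91229486, mm9) did not share the decrease with LPS, at 7.50 and 7.42 without treatment, 8.28 and 7.73 after LPS, and 7.28 and 7.16 after LPS+USP7i. Its difference between LPS and untreated cells was 0.54 (adjusted p = 0.193), so the probes disagree on the direction of the LPS response of *Cyld*, while both were lower with LPS+USP7i than with LPS. The mean of both probes differed by −0.75 between LPS+USP7i and LPS and passed the threshold (adjusted p = 0.0178, with a range of 0.0178 to 0.282 over all alternatives). The mean of both probes differed by −0.23 between LPS and untreated cells (adjusted p = 0.145). Over all alternatives tried, of which this mean is 1, the adjusted p for *Cyld* ranged from 0.00667 to 0.163. With either untreated or either LPS array left out, that of the brighter probe was 0.132, 0.163, 0.124 and 0.0667.

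**Figure D2:**
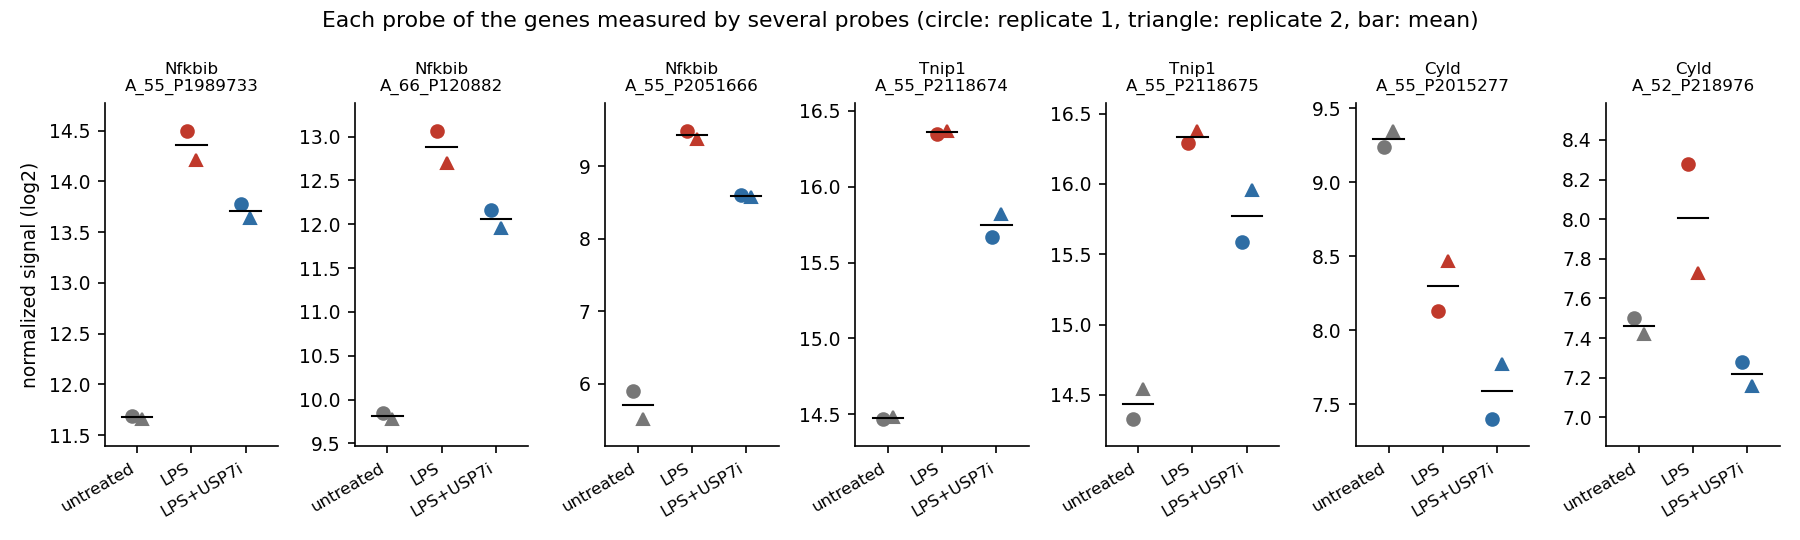
Normalized log2 signal on each of the 6 arrays for every probe of *Nfkbib*, *Tnip1* and *Cyld*, with 1 panel per probe; circles are replicate 1, triangles are replicate 2, and bars are group means. The probes of *Nfkbib* and of *Tnip1* give the same order of groups, whereas only the left *Cyld* probe is lower with LPS than untreated.

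Several probes were available for *Nfkbib* as well, and these shared their direction. The dimmer *Nfkbib* probes at chr7:29545252-29546647 and chr7:29543270-29543329 rose by 3.07 and 3.72 with LPS. They differed by −0.82 (adjusted p = 0.0609) and −0.84 (adjusted p = 0.0524) between LPS+USP7i and LPS, close to the value of the brightest probe.

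Ordered by the difference between LPS+USP7i and LPS, the genes ran from *Irak3* (−1.83) through *Nfkbiz* (−1.47), *Bcl3* (−0.98), *Nfkbie* (−0.79), *Cyld* (−0.72), *Nfkbib* (−0.64), *Tnip1* (−0.62), *Tnfaip3* (−0.39) and *Nfkbia* (−0.21) to *Nfkbid* (0.13). The 95% intervals of all neighbours in this order overlapped. In the comparison with untreated cells, 8 of the 10 genes were higher in LPS+USP7i cells (6.16% of all gene names), *Cyld* was lower (8.71% of all gene names) and *Irak3* was not called, with a median of 1.65. This comparison shares its arrays with the others. The 8 genes ranged from *Tnfaip3* at 22.6-fold to *Nfkbid* at 1.86-fold above untreated cells. For *Cyld* the brighter probe differed by −1.71 (adjusted p = 0.0147), the other by −0.24 (adjusted p = 0.584) and the mean of both by −0.98 (adjusted p = 0.00763). The call of the brighter probe was lost with either untreated array left out (adjusted p = 0.0754 and 0.0849), the latter being the highest of all alternatives and 0.00125 the lowest. With an untreated array left out 6 genes were called higher, without *Nfkbid* and *Bcl3*, and with any other array left out 6 or 7. The LPS+USP7i arrays lay between the untreated and the LPS arrays for *Nfkbia*, *Nfkbib*, *Nfkbie*, *Nfkbiz*, *Bcl3*, *Tnfaip3* and *Tnip1*, but of these 7 genes only *Bcl3* and *Tnip1* passed the threshold against LPS.

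The lower calls with the inhibitor were lost in most fits without 1 array. With either untreated or either LPS array left out, 0 of the 10 genes passed in limma, although 8, 8, 8 and 7 of them were lower at an unadjusted p under 0.05. The difference between LPS+USP7i and LPS does not use the untreated arrays and stayed at −1.83 for *Irak3*, −0.98 for *Bcl3* and −0.62 for *Tnip1* without either of them, so that only its estimated error changed. In those fits the loss of calls held for all gene names, of which 0 were called lower and 3673 or 3674 had an unadjusted p under 0.05. With LPS replicate 1 or 2 left out it did not, since 791 and 700 gene names were still called lower. Without LPS+USP7i replicate 1 only *Irak3* passed, and without replicate 2 *Tnip1* and *Irak3* passed. Treatment also coincided with the position of the arrays on the single slide, so the 2 cannot be told apart.

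**Figure D3:**
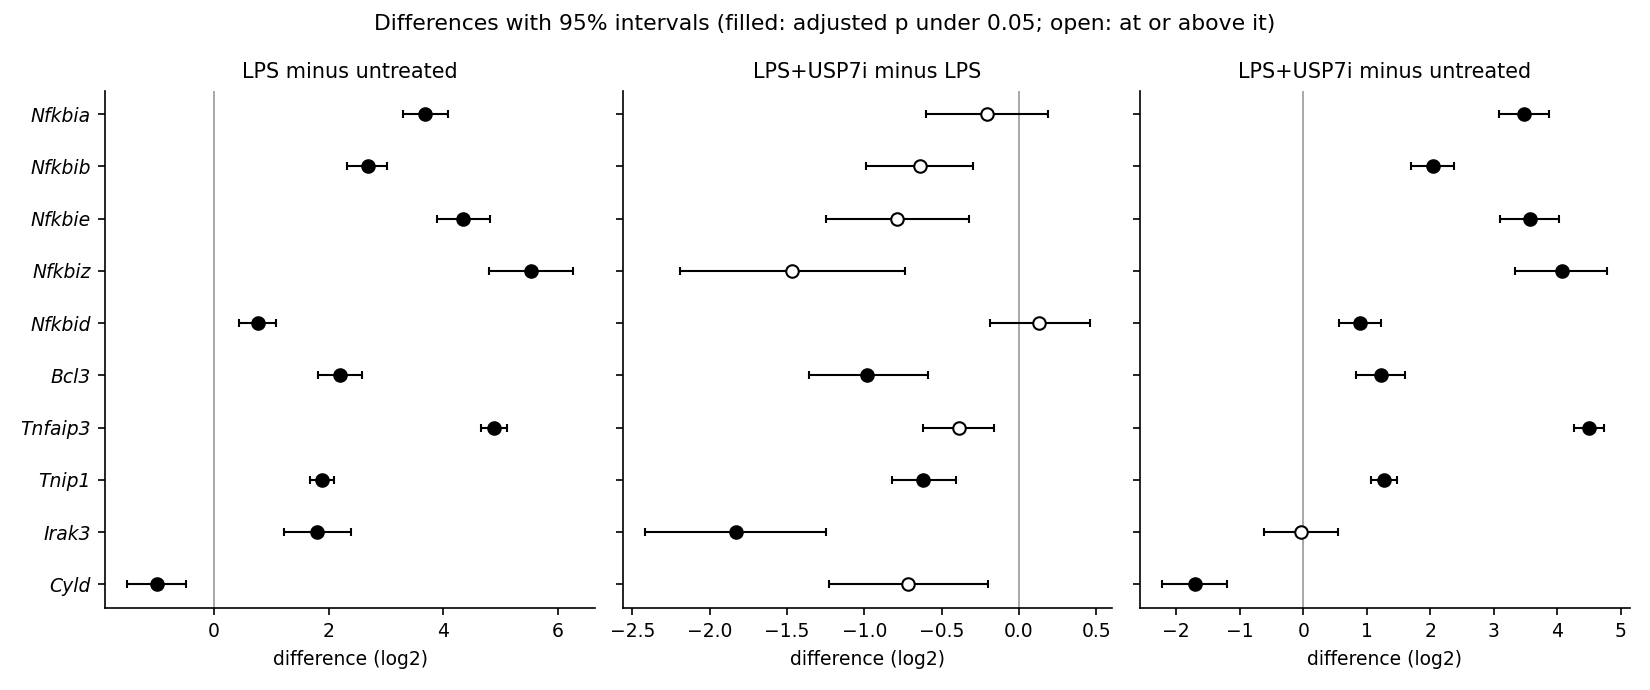
Difference in log2 signal for each gene in the 3 comparisons, with 95% intervals from limma; filled circles have an adjusted p under 0.05. With LPS+USP7i against LPS, 9 of the 10 points lie below 0 and 3 are filled (*Bcl3*, *Tnip1* and *Irak3*).

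RefSeq promoter entries were found for 9 of the 10 genes, 13 entries in all, since some genes have several starts. The κB consensus occurred on either strand within 250 bases before the start in 6 entries, those of *Nfkbia*, *Nfkbie*, *Nfkbid*, *Tnfaip3*, *Tnip1* and *Cyld*, and in 7.25% of 32851 promoters overall. The looser GGGNNNNNCC, which every consensus match also meets, occurred in 11 of the 13 entries and in 45.8% of promoters. The remaining matches to the consensus are shown with 10 bases on each side, as they differ in spacing and in sequence.
Nfkbie: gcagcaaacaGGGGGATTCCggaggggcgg
Nfkbid, site farther from the start: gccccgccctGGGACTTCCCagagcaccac
Nfkbid, site nearer the start: gggccgaacaGGAATTCCCCgtgcgcgggg
Cyld: ttgaccgagcGGAAAGTCCCttcagccagc
These began 106 bases before the start in *Nfkbie*, 226 and 181 bases in *Nfkbid* and 155 bases in *Cyld*. No consensus match lay in the listed windows of *Bcl3*, *Irak3* and *Nfkbib*; nothing about binding follows from a match or its absence.

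Genes with the most similar pattern over the 6 arrays, by the root mean square difference of log2 signals after subtraction of the untreated mean, were sought for 5 members among 11654 genes. *Nfkbia* was closest to *Cflar* (0.18), *Irf1* (0.19) and *Csrnp1* (0.21). *Tnfaip3* was closest to *Pde4b* (0.17), *Ccl4* (0.20) and *Csf1* (0.24), and *Nfkbiz* to *Tnfsf9* (0.26), *Gbp3* (0.28) and *Wdr92* (0.33). *Bcl3* had *Prb1*, *Cd44* and *Slfn10-ps* at 0.14. *Irak3* had the closest neighbours, *Trim30d* (0.11), *Cyria* (0.12) and *Gda* (0.13), which differed from untreated cells by −0.03, 0.13 and −0.21 with LPS+USP7i.

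The IκB proteins bind NF-κB subunits, whose genes were also measured. LPS raised all 5 subunit genes, and 4 of 5 were lower with the inhibitor, *Relb* being the exception. Among all gene names, 7.98% were higher with LPS and 4.27% lower with the inhibitor. The count of 4 was 2 with the deposited values, 2 with the replicate block and 3 with a trended prior. It was 0 in limma with fits of only 2 groups or with an untreated or LPS array left out, where all 5 were lower at an unadjusted p under 0.05. Without LPS+USP7i replicate 1 and 2 it was 1 and 2. *Nfkb1*, which encodes p105 and p50, rose by 3.16 and fell by 1.45 (adjusted p = 0.0134), and *Nfkb2*, which encodes p100 and p52, rose by 3.49 and fell by 1.44 (adjusted p = 0.0215). *Rel*, which was not well above background on either untreated array, was at least 4.76-fold higher with LPS, taking the lowest signal well above background as the untreated level, and fell by 1.11 with the inhibitor (adjusted p = 0.0303). That bound holds on this scale only, since the rise was 0.95 with normexp background correction and 2.01 with the deposited values, and the fall became −0.43 and −0.77. *Rela* itself rose by 0.99 (1.56 with 75th percentile scaling) and fell by 0.54 (adjusted p = 0.0236). With the deposited values the inhibitor calls of *Rel* and *Rela* were lost. *Relb* rose by 2.18 and differed by −0.48 (adjusted p = 0.0766). In the IKK complex, 1 of 3 genes passed the threshold with LPS and with the inhibitor, *Ikbkb*, which encodes the kinase IKKβ. It rose by 1.11 with LPS, fell by 1.29 with the inhibitor, and differed from untreated cells by −0.18 with LPS+USP7i. *Ikbkg*, which encodes the regulatory subunit NEMO, was higher by 1.82 with LPS+USP7i than untreated (adjusted p = 0.0163). That call was lost with either untreated or either LPS+USP7i array left out. The difference of *Ikbkg* between LPS+USP7i and LPS was 1.16 (adjusted p = 0.0542), which passed the threshold with normexp background correction and with the deposited values.

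Upstream of IKK, 8 of 18 genes of proximal TLR4 signalling were higher and 4 lower with LPS, and 5 were lower and 1 higher with the inhibitor. Over all gene names these shares were 7.98% and 12.8% with LPS, and 4.27% lower and 5.52% higher with the inhibitor. With any untreated or LPS array left out, 4 genes of this list were higher and 1 lower with LPS, and with the replicate block 2 were lower and 1 higher with the inhibitor. In fits of only 2 groups limma called 0 of the 18 genes in either direction with the inhibitor. There, 6 were lower and 6 higher at an unadjusted p under 0.05. Fewer were also called lower with the inhibitor when any 1 array was left out. The LPS co-receptor gene *Cd14* rose by 1.69 with LPS and fell by 1.31 with the inhibitor. The adaptor gene *Myd88* rose 4.00-fold and fell by 1.05 (adjusted p = 0.0499). *Ticam2*, encoding the adaptor TRAM, was not well above background on either LPS+USP7i array and was at least 7.87-fold lower than with LPS on this scale (adjusted p = 0.0183). With normexp and with the deposited values its difference was smaller, at −1.54 and −2.38. *Irak2* and *Tab2* were the other lower genes and *Traf3* the higher. *Tab1* fell by 2.11 with LPS, and *Tlr4* (−0.80), *Irak1* (−0.40) and *Traf3* (−0.48) were the others lower with LPS; with 75th percentile scaling *Tab1* was the only call among these 4. Among 8 linear ubiquitin and RIPK1 genes, *Rnf31* (HOIP) fell by 1.56 and *Ikbke* fell by 1.64 with the inhibitor, while *Otulin*, which removes linear chains, rose by 0.94. *Tbk1* rose by 0.67 with LPS, a call lost with the deposited values, and differed by −0.24 with the inhibitor (adjusted p = 0.124).

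Of 8 genes for A20 partners and related proteins, *Tnip3* (ABIN-3) rose by 2.78 and *Tnfaip8l2* fell by 2.27 with LPS. With the inhibitor, *Otud7b* rose by 1.81 and *Zranb1* by 1.22, and the other 6 did not pass the threshold, while 5.52% of all gene names were called higher. The rise of *Otud7b* was 0.67 with normexp and 0.90 with the deposited values. Of 14 other inhibitors of TLR signalling, 7 were higher with LPS and 3 were lower, *Sigirr*, *Traf3ip3* and *Il1rl1*. The shares of all gene names were 7.98% higher and 12.8% lower with LPS. The count of 3 was 1 or 2 with an untreated or LPS array left out and 5 with normexp, and *Il1rl1* passed in 2 and *Traf3ip3* in 3 of the 6 fits without 1 array. *Socs1* rose by 7.45, *Peli1* by 4.36, *N4bp1* by 3.68 and *Usp18* by 3.58. The rise of *N4bp1* was 2.55 with normexp and 3.19 with the deposited values. With the inhibitor *Usp18* fell by 1.75, *Trim30a* fell by 1.91 and *Tollip* rose by 1.61. Among all gene names, 4.27% were lower and 5.52% higher with the inhibitor. Over all 56 genes of these lists, 14 were lower and 5 higher with the inhibitor, and with either untreated array left out limma called 0 in either direction, while 25 were lower and 14 higher at an unadjusted p under 0.05. With the replicate block 7 were lower and 6 higher, and with normexp 19 and 11. Without either LPS array 1 was lower and 2 or 3 were higher, and without LPS+USP7i replicate 1 these counts were 7 and 2.

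**Figure D4:**
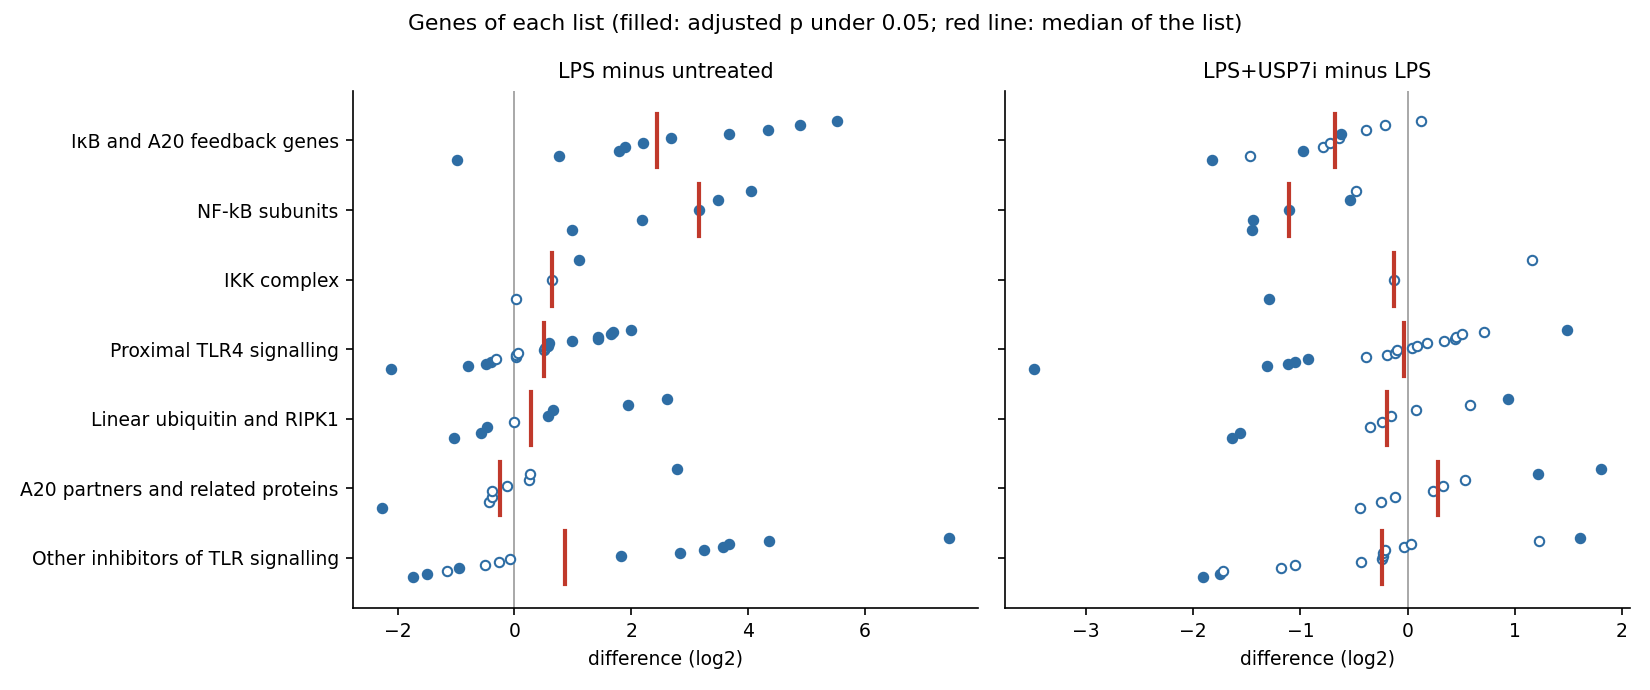
Difference in log2 signal for every gene of each list, for LPS minus untreated and LPS+USP7i minus LPS; each point is 1 gene, filled where the adjusted p is under 0.05, and the red line is the median of the list. The IκB and A20 feedback genes have a median of −0.68 in the inhibitor comparison, the NF-κB subunits −1.11, and the A20 partners 0.29.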

How the data were processed

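The authors deposited the scanner output of 6 arrays, holding spot intensity corrected for background by the scanner software, and log2 values normalized between arrays. Here the processed intensity of non-control spots was quantile-normalized on the log2 scale without spots called outliers by that software, and spots of 1 probe were averaged. All 3 groups were fitted together with limma 3.58.1 in R 4.3.3, leaving 3 residual degrees of freedom, with Benjamini-Hochberg adjustment over 55680 probes and a threshold of 0.05. A gene with several probes is represented by the brightest, and probe positions (mm9) are those of the array files. The deposited log2 values correlated with these across spots (Pearson r = 0.987, column medians 5.07 to 5.10). The genes and lists were chosen with earlier results of these data known. All 10 feedback genes are named, with up to 4 genes of each pathway list past the threshold that differed most; other pathway genes behind small counts were named after their values were seen. Alternatives were 75th percentile scaling, normexp (offset 50), the deposited values, dim probes left out, outlier spots kept, a variance prior with a trend, fits of only 2 groups, a replicate block, each array left out, the mean of all probes, and a minimum log2 difference of 1. The 2 arrays per group limit the precision of every value.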

Additional observations from a re-analysis of the deposited data

How the results depend on the processing

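With the brightest probe or the mean of probes, the direction of the LPS response held for all 10 genes under every alternative tried. The dimmer *Cyld* probe, which no alternative used alone, differed by 0.54, against −0.99 for the brighter probe. With all arrays, 8 or 9 genes were called higher, and fewer passed with 1 untreated or LPS array left out. The inhibitor difference kept its sign for all genes except *Nfkbid*. The count of genes lower with LPS+USP7i than LPS was 3, and became 5 with 75th percentile scaling, 7 with normexp background correction, 4 with the deposited values (without *Tnip1*), 7 with dim probes left out, 5 with a trended prior and 5 with the mean of all probes of a gene (without *Tnip1*). It was 1 with a log2 difference of at least 1, and 0 with fits of only the 2 groups compared, where 8 genes were lower at an unadjusted p under 0.05. Leaving out 1 array gave 0 to 2. The median difference, −0.68, was −0.82 with 75th percentile scaling and lay between −0.79 and −0.58 with 1 array left out. The cause was not tested.

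Signs changed for *Nfkbid* between LPS+USP7i and LPS, which was −0.000258 with 75th percentile scaling, and for *Irak3* between LPS+USP7i and untreated cells, which was 0.03 with that scaling and ranged from −0.30 to 0.23 with 1 array left out. The adjusted p of the inhibitor difference ranged from 0.0015 to 0.101 for *Irak3*, 0.00421 to 0.126 for *Bcl3* and 0.00481 to 0.094 for *Tnip1*. No alternative brought *Nfkbia* or *Nfkbid* past the threshold (0 of 15 for each).

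The 75th percentile scaling moved the median of all gene names by 0.40 between LPS and untreated cells and by 0.44 between LPS+USP7i and untreated cells, and 12150 and 12182 gene names were higher and 4048 and 3354 lower there, against 2775 and 2144 higher and 4443 and 3031 lower. For the inhibitor, 1919 gene names were higher and 1485 lower, against 2880 and 2373 with normexp and 2774 and 2360 with dim probes left out. With fits of 2 groups, limma called 0 higher and 0 lower with the inhibitor, although 4330 and 3674 passed an unadjusted p under 0.05. For LPS+USP7i against untreated cells it called 1347 higher and 1954 lower. With 1 array left out, 1138 to 2583 gene names were higher and 1644 to 4026 lower with LPS, 0 to 1906 higher and 0 to 1186 lower with the inhibitor, and 474 to 1997 higher and 563 to 1954 lower with LPS+USP7i than untreated; where a group then had a single array, it was assumed to vary like the others.

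The replicate numbers share only 2 pairs per comparison, and the deviations of same-numbered arrays correlated at 0.47, 0.42 and 0.40, while the number also coincided with slide position. With the replicate block, 8 genes were higher with LPS (without *Nfkbid*) and 1 was lower with the inhibitor (*Tnip1*). In that fit 8 were higher with LPS+USP7i than untreated. The last count was 6 to 8 over all alternatives, since *Nfkbid* passed in 9 and *Bcl3* in 11 of 15.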
